A study of Mus musculus with 7 samples.

Results

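The Ly6 surface antigen family was followed here through 8 genes, Ly6a, Ly6e, Ly6c1, Ly6c2, Ly6i, Ly6g, Ly6d and Ly6k, chosen by symbol from 31053 genes measured in whole bone marrow of mice. All 8 were present in each of the 7 single-cell libraries. Marrow from spine, hips, femur and tibia had been freed of red cells, marked with hashtag antibodies, which give every sample its own oligonucleotide tag, and sequenced in 4 pools with a droplet kit that reads the 3′ ends of transcripts. The samples were 2 chronic, TET2-mutated ones (hashtags HRO.5 and HRO.6, both in pool WBM_1), 6 HRO (HRO.7 to HRO.12), 3 HRY, 4 WTO and 3 WTY. The prefixes are the submitters' own, and the labels state no strain, age or treatment. Samples HR.7 and HR.AE entered no comparison between groups. Whether hashtags stand for separate animals is not stated, so the spread behind each p-value is that of hashtag samples and may be technical.

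Ly6 proteins are small, cysteine-rich domains held at the outer cell surface by a lipid (GPI) anchor, and several are the antigens by which mouse marrow cells are sorted. Ly6a is Sca-1, a mark of mouse stem cells and of activated lymphocytes, and is known to be induced by interferon. Ly6c1 and Ly6c2 carry the Ly-6C antigen of inflammatory monocytes, and Ly6g is the antigen of the 1A8 antibody on neutrophils. Ly6d marks early B-lineage commitment, and Ly6e is a broadly expressed, interferon-inducible member known for limiting coronavirus entry.

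The family occupies 397071 bases of chromosome 15 (GRCm38, GENCODE M21), from Ly6d at chr15:74762056-74763620 to Ly6g at chr15:75155240-75159126. Between them lie Ly6k (74796874 to 74799986), Ly6e (74955051 to 74959905), Ly6i (74979534 to 74983430), Ly6a (74994877 to 74998031), Ly6c1 (75044018 to 75048830) and Ly6c2 (75108158 to 75111970). Ly6e and Ly6g lie on the plus strand and the other 6 on the minus strand. The coding sequences of Ly6c1 and Ly6c2 were 93.8% identical over 389 aligned bases, and those of Ly6a and Ly6i 86.4% over 405. Pairs among Ly6a, Ly6c1, Ly6c2, Ly6i and Ly6g shared 76.8% to 93.8% of aligned bases, while pairs with Ly6e, Ly6d or Ly6k shared 60.3% to 68.5%. Of the windows of 98 bases, the length of the transcript read, within the last 400 bases of its annotated transcripts, 11.1% of those of Ly6c1 and 14.8% of those of Ly6c2 were found in the other gene too. No such window of the other 6 members was shared, so only the split of reads between Ly6c1 and Ly6c2 was uncertain.

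The stretches of 250 bases ahead of the RefSeq start sites of Ly6c1, Ly6c2 and Ly6g (GRCm38.p6) are shown because only these members had a promoter entry. Ly6a, Ly6e, Ly6i, Ly6d and Ly6k had none, so no motif was searched ahead of them. Capitals mark GAGGAAGT, a core bound by the myeloid factor PU.1. The first is chr15:75048838-75049087 on the minus strand, the second chr15:75111972-75112221 on the minus strand and the third chr15:75155011-75155260 on the plus strand.
Ly6c1: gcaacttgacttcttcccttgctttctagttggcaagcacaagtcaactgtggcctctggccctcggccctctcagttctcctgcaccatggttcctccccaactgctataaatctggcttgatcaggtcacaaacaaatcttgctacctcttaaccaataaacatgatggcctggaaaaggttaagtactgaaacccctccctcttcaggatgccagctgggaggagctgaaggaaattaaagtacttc
Ly6c2: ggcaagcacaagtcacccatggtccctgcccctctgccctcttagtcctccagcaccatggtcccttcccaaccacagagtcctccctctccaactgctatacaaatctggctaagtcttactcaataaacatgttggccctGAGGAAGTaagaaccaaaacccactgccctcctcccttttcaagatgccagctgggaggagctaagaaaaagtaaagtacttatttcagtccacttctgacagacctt
Ly6g: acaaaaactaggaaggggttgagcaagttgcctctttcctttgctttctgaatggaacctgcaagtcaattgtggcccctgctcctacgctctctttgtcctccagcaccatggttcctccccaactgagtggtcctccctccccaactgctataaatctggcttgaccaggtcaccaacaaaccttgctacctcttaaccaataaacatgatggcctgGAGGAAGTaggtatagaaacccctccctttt
GAGGAAGT was found once ahead of Ly6c2, once ahead of Ly6g and not ahead of Ly6c1, with both strands searched. It occurred in 2.44% of 32851 promoters of the same table, counted over stretches of the same length. TTCNNNGAA, a STAT site (7.02% of promoters), and the interferon-stimulated response element (2.98%) had no match in these 3 windows. Over the best-aligned parts only, the stretch ahead of Ly6g was 83.5% identical to that of Ly6c1 (206 aligned bases) and 80% to that of Ly6c2 (165). The stretches of Ly6c1 and Ly6c2 were 76.3% identical over 215 aligned bases. These matches describe letters only.

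Of 78720 barcodes, 57944 carried 1 hashtag and 43024 cells were kept. The libraries held 25343305 to 95553827 unique molecular identifiers (UMIs, each counting 1 captured transcript). Libraries WBM_3a and WBM_3b shared 2078 barcodes, and the next pair 51. Over all kept cells Ly6c2 gave 435714 UMIs, Ly6e 274971, Ly6a 132292, Ly6g 55725, Ly6d 34420, Ly6i 12341, Ly6k 5421 and Ly6c1 290. Ddx3y, a Y-linked transcript, was detected above 5 CPM in 1 of 2 chronic samples, 1 of 6 HRO (HRO.9), 3 of 3 HRY, 3 of 4 WTO (not WTO.4) and 2 of 3 WTY (not WTY.3). Between HRO and HRY, and between HRO and WTO, group and sex cannot be fully told apart. In pool WBM_4 HRO.11 and HRO.12 lacked Ddx3y at this level, while WTO.5 and WTO.6 had it. Differences between HRO and WTO within that pool therefore cannot be told from those of sex. HRO.7 and HRO.8 stood apart from the rest in several classes, and tests given here whose call changed or whose log2 value moved by over 1.5 times without them are shown both ways.

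Cells were clustered without the Ly6 genes, and clusters were named from marker genes, so each class name means cells like the named type. Levels are CPM, the UMIs of a gene scaled to the total UMIs of the class in a sample, compared within a gene and not between genes, for samples holding 20 or more cells of a class. They are a description without a test, and their error is counting error plus the spread between samples. Ly6c2 had its highest medians in monocytes and early neutrophil precursors, and was not confined to the monocyte and neutrophil series. Its median was 2906 CPM in monocytes (18 samples, 1991 to 4362), 2095 CPM in early neutrophil precursors (17 samples, 1795 to 2911), 1053 CPM in immature neutrophils and 886 CPM in mature neutrophils (18 samples each). The ranges of monocytes and early precursors overlap, as do those of immature and mature neutrophils, but no monocyte or early precursor sample was as low as the highest immature neutrophil sample (1790 CPM). Plasmacytoid dendritic cells (median 1516 CPM, 8 samples), plasma cells (1384 CPM, 4 samples) and macrophages (1149 CPM, 2 samples) had medians above those of immature and mature neutrophils. T or NK cells had a median of 848 CPM (15 samples, 113 to 1808) and conventional dendritic cells 731 CPM (3 samples). Mature B cells had 114 CPM and basophils or mast cells 63.1 CPM.

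Ly6c2 in stem and progenitor cells divided by sample. HRO.7 had 1899.6 CPM and HRO.8 2048 CPM, against 15.3 to 343 CPM in the other 5 samples. Of the stem and progenitor cells of HRO, 57.7% lay in cluster 41, with 67.3% of its cells from HRO.7 and 1927 CPM of Ly6c2. The others, and all those of HRY and WTO, lay in cluster 36, with 21.4 CPM. Cluster 41 passed the naming rule with 10 of 13 stem cell markers, and 6 markers of early neutrophil precursors also met it. Ly6c1, the near-identical neighbour, was at a median of 4.03 CPM in T or NK cells (15 samples, highest 88.7 CPM in HRO.9) and at a median of at most 1.36 CPM in every other named class.

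Ly6g marked the later neutrophil steps. It had a median of 665 CPM in immature neutrophils (473 to 913) and 600 CPM in mature neutrophils (183 to 953), which overlap. In early neutrophil precursors it was at 5.17 CPM (0 to 21.2) and in monocytes at 4.03 CPM (0.503 to 19.5), with no overlap with immature neutrophils. At least 1 Ly6g UMI was found in 79.8% of immature neutrophils and 1.87% of T or NK cells, which should lack it. With 9138 of 9340 and 1573 of 1876 cells thinned to 1000 UMIs, the shares were 47.3% and 0.89% (median depths before thinning 4908.5 and 2426.5 UMIs). Ly6i, the closest relative of Ly6a, had its highest level in macrophages, at 1013 CPM in HRO.7 and 981 CPM in HRO.8, the 2 samples with enough of them. In conventional dendritic cells its median was 61.3 CPM, in monocytes 16.2 CPM, and it was 0 in 6 of the 14 classes.

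Ly6a levels of the classes rest on different samples, so their order is no ranking. Macrophages had 2031 CPM in HRO.7 and 2021 CPM in HRO.8, below the 2632 CPM of plasmacytoid dendritic cells in HRO.7, and plasma cells a median of 1176 CPM (1031 to 1253, 4 samples). Mature B cells had a median of 465 CPM (195 to 698, 11 samples), plasmacytoid dendritic cells 428 CPM (30.6 to 2632, 8 samples) and T or NK cells 329 CPM (68.3 to 1517, 15 samples), with overlapping ranges. Stem and progenitor cells, where Sca-1 is the classical marker, had 61.0 to 667 CPM (median 105, 7 samples). Pro-B and pre-B cells, at a median of 9.92 CPM with a highest sample of 19.0, lay wholly below mature B cells. Immature neutrophils had the lowest median (3.69 CPM, 0 to 16.1). Conventional dendritic cells depended on the sample, with 1040.0 CPM in HRO.7, 1048 CPM in HRO.8 and 32.2 CPM in HRO.9.

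Ly6e was detected in every class, from a median of 1875 CPM in plasmacytoid dendritic cells and 1767 CPM in mature B cells to 60.8 CPM in immature neutrophils. Along the neutrophil series it was 531 CPM in early precursors (265 to 1053), 60.8 CPM in immature neutrophils (32.3 to 217) and 378 CPM in mature neutrophils (90.2 to 1100). The ranges of early precursors and immature neutrophils did not overlap. Ly6d followed B cells and plasmacytoid dendritic cells, with medians of 2434 CPM in plasmacytoid dendritic cells (1905 to 3116), 2222 CPM in mature B cells (718 to 4021), 1083 CPM in pro-B and pre-B cells and 1036 CPM in plasma cells. Its median was under 4 CPM in monocytes and in both later neutrophil classes. In monocytes the 5 samples of pool WBM_1 had 22.6 to 89.2 CPM of Ly6d and the other 13 samples 0 to 8.21 CPM. A part of free RNA in this was not tested. Ly6k, known in mice for its part in sperm function, had its highest median in plasma cells (116 CPM, 22.8 to 275).

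**Figure D1:**
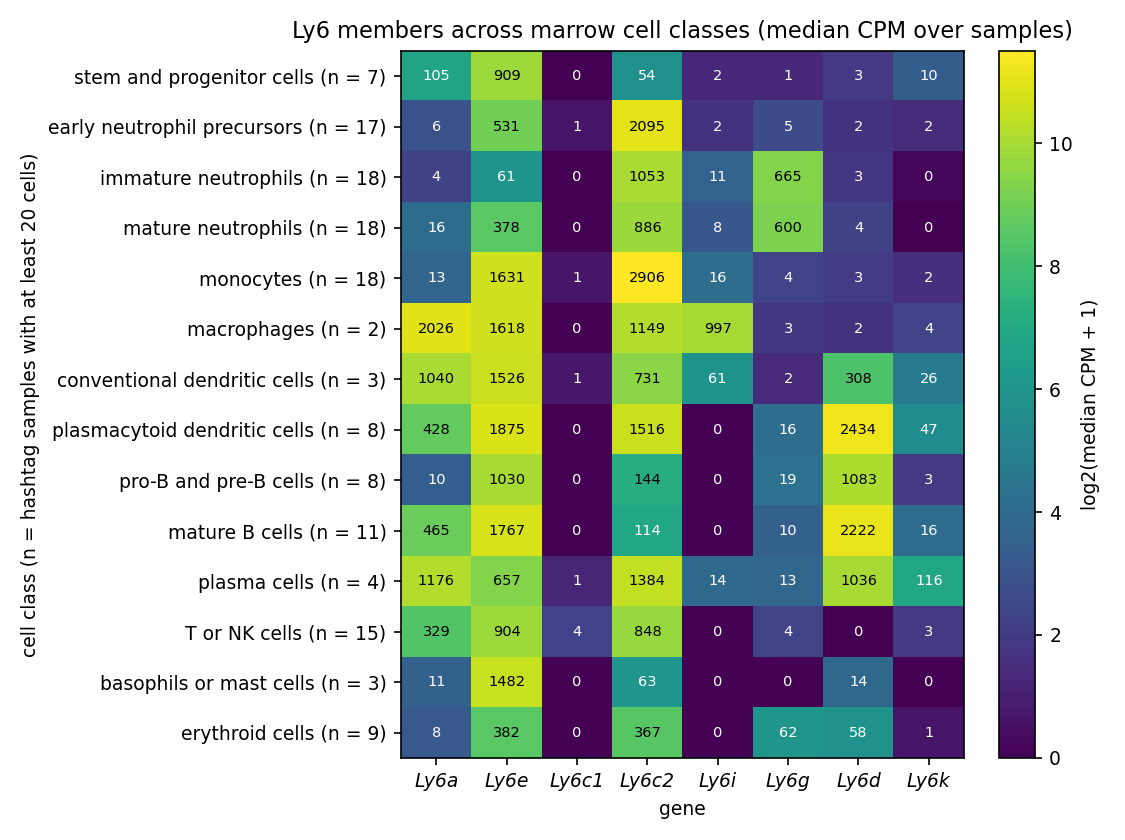
Median level of each of the 8 genes (columns) in 14 cell classes (rows), coloured by log2 of the median CPM plus 1, with the median printed in each cell and n the number of hashtag samples with at least 20 cells. Ly6c2 peaks at 2906 CPM in monocytes, Ly6g at 665 CPM in immature neutrophils and Ly6d at 2434 CPM in plasmacytoid dendritic cells.

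Over 51 sums of a class in a group, which share libraries and depth, genes whose log2 levels ran most like Ly6a included H2-Eb1 (Pearson r = 0.79), Gbp4 (0.78), Traf1 (0.78) and Cd74 (0.78). Those most like Ly6c2 were Slc8b1 (0.79), Man1c1 (0.73), Lamtor4 (0.70), Tspo (0.70) and Itm2b (0.69). Those most like Ly6i were Lyz1 (0.77), Gpr141 (0.76), C4b (0.76), Chmp2a (0.75) and Treml4 (0.74).

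HRO against WTO asks how the Ly6 genes of the HRO samples stand against those of the WTO samples. Counts were summed per sample and class and tested with edgeR's quasi-likelihood test with pool as a term, with Benjamini-Hochberg adjustment over all genes of the class and a threshold of 0.05. In HRO, Ly6a rose in monocytes, Ly6e rose in immature and mature neutrophils, and Ly6g fell in immature neutrophils. These were 4 of 29 tests of a member in a class that passed the filter on low counts (14 at unadjusted p under 0.05), while 3.96% of all tests over 5 classes were called. Leaving out 1 sample changed the 4 calls to 0 (WTO.4), 2 (WTO.3, HRO.10 or HRO.11) or 13 (HRO.9). The share of all genes called was counted for the fit with all samples only, so these changed counts have no background beside them. The B lineage could not be tested, because HRO.9 alone among the HRO samples had 20 such cells. Within classes, 1 of 7 members was called in monocytes (all genes 12.0%), 2 of 6 in immature neutrophils (2.24%) and 1 of 6 in mature neutrophils (1.76%).

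Ly6a in HRO monocytes ran from 8.51 CPM in HRO.12 over a median of 109.8 to 996 CPM in HRO.7, with 971 in HRO.8, 196 in HRO.10, 23.7 in HRO.9 and 18.4 in HRO.11. The WTO samples had 17.0 (WTO.4), 5.66, 5.58 and 5.40 CPM. All HRO samples but HRO.12 lay above all WTO samples, and most of the height came from HRO.7, HRO.8 and HRO.10. The mean was 369 ± 481 CPM in HRO (SD, n = 6) and 8.41 ± 5.72 CPM in WTO (SD, n = 4). The fitted log2 fold change of Ly6a was 5.21 ± 1.24 (SE), with an adjusted p of 0.0135 in edgeR's quasi-likelihood test. Without HRO.7 and HRO.8 it was 1.80 ± 0.54 with an adjusted p of 0.0424. The difference of mean log2 levels of Ly6a was 4.02 in pool WBM_2 (3 against 1 sample) and 0.65 in pool WBM_4 (2 against 2). The call was lost without WTO.4 (log2 fold change 4.30, adjusted p 0.316), without WTO.3 (4.98, 0.0551), without HRO.10 (4.99, 0.0557), without pool WBM_1 (4.96, 0.087), without the pool term (5.17, 0.0542) and with clusters at resolution 1 (1.74, 0.0636).

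The monocytes of the groups came largely from different clusters. Those of HRO lay 39.1% in cluster 2, 33.0% in cluster 8 and 12.9% in cluster 34, those of HRY 33.4% in cluster 3, 27.6% in cluster 16 and 26.4% in cluster 22, and those of WTO 44.6% in cluster 45, 16.9% in cluster 3 and 16.4% in cluster 39. WTO.4 gave 96.1% of the cells of cluster 45. Clusters 8 and 34, with 79.5% and 78.7% of their cells from HRO.7, had 1115 and 794 CPM of Ly6a. Cluster 2, with 69.8% of its cells from HRO.9, had 83.4 CPM. Beside Ly6a, summed MHC class II genes of the dendritic cell list were at 8425 CPM in HRO.7 and 8184 CPM in HRO.8 monocytes. The remaining HRO samples had 94.2 to 544 CPM of them, and WTO samples 52.1 to 199.99 CPM. The other 10 markers of conventional dendritic cells summed to 24.9 to 39.0 CPM in HRO and 42.8 to 63.5 CPM in WTO, and macrophage markers to 120 to 156 CPM in HRO and 104 to 199.99 CPM in WTO.

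Ly6i in HRO monocytes had 12.0 CPM at the lowest, a median of 36.5 and 231 CPM in HRO.8, with 221 in HRO.7. WTO had 50.9, 26.4, 10.8 and 7.44 CPM. The groups overlap, and the log2 fold change of 2.02 ± 0.71 had an adjusted p of 0.0751. That of Ly6i was 0.44 ± 0.28 (adjusted p 0.373) without HRO.7 and HRO.8. Ly6c2, the monocyte antigen gene itself, had 1991, a median of 3419 and 4362 CPM in HRO, and 2891, 2788, 2785 and 2255 CPM in WTO. Its log2 fold change was 0.19 ± 0.16 (adjusted p 0.506), so the change of Ly6a in these monocytes was not shared by Ly6c2 at the test's threshold, a difference that was not itself tested. Ly6e was at 0.33 ± 0.12 (adjusted p 0.0885), and Ly6g, the neutrophil antigen, was at 0.503 to 19.5 CPM in the monocytes of all samples.

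**Figure D2:**
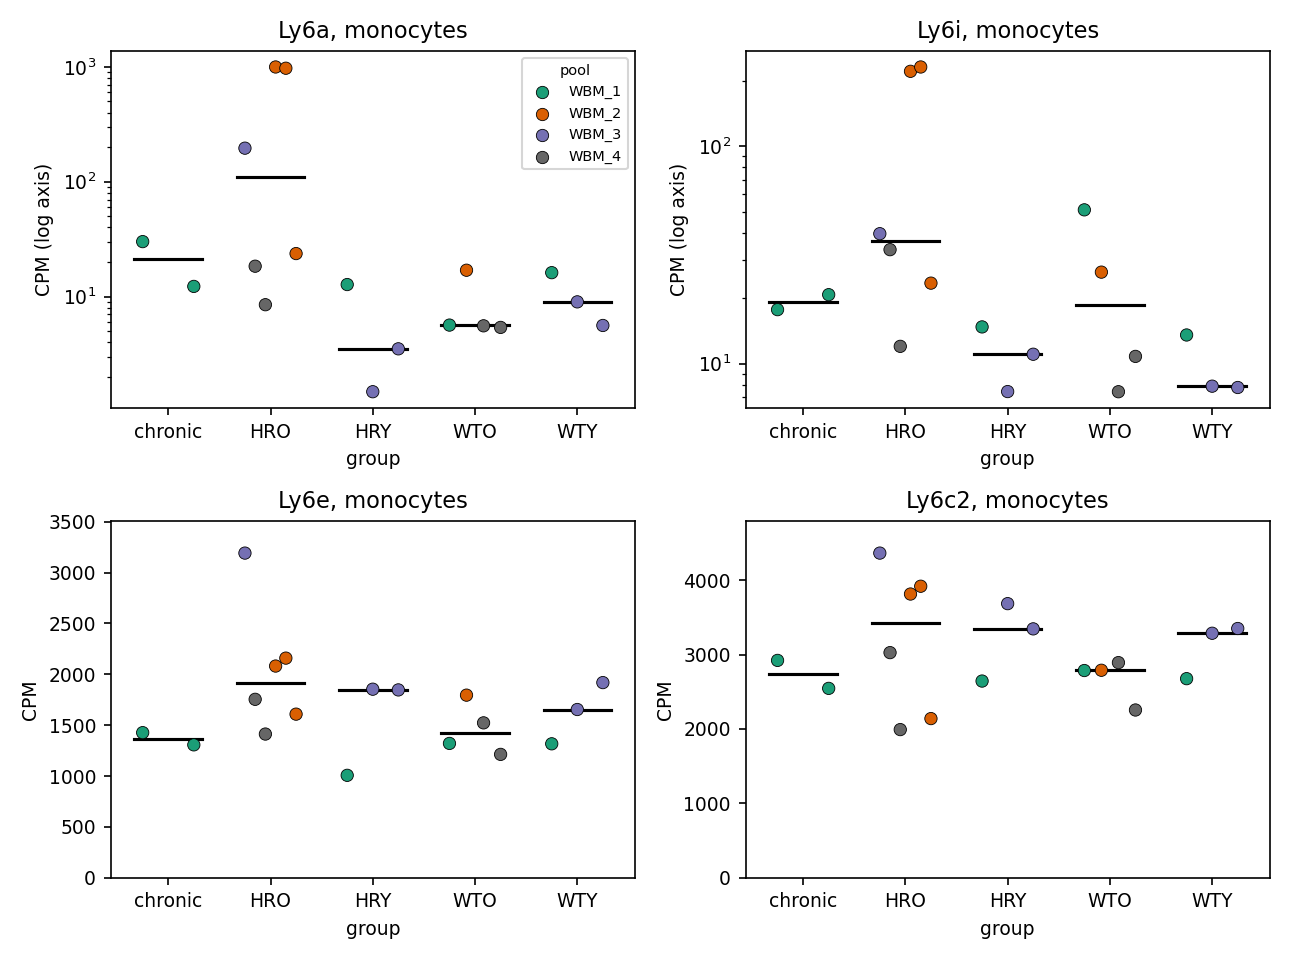
CPM of 4 Ly6 genes in monocytes of each hashtag sample, by group, with colours for pools and bars at the group median; the upper panels have a log axis. Ly6a is at 996 and 971 CPM in HRO.7 and HRO.8 of pool WBM_2, while Ly6c2 lies between 1991 and 4362 CPM in all samples.

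Ly6e rose in both later neutrophil classes of HRO, and Ly6g fell in the immature one. In immature neutrophils Ly6e had 44.2, a median of 118.7 and 217 CPM in HRO, and 63.2, 43.7, 38.4 and 32.3 CPM in WTO. HRO.12 alone overlapped with WTO, and HRO.7 (217), HRO.8 (209) and HRO.10 (150 CPM) were highest. Ly6e had a log2 fold change of 1.40 ± 0.32 (edgeR adjusted p 0.0239). It was 0.90 ± 0.17 without HRO.7 and HRO.8 (adjusted p 0.00415) and lost its call without WTO.4 (1.001, 0.427), WTO.3 (1.36, 0.0607), HRO.10 (1.35, 0.064), HRO.11 (1.34, 0.0964) or pool WBM_1 (1.35, 0.102), without the pool term (1.34, 0.467) and with Ddx3y status as a term (1.11, 0.148).

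In mature neutrophils Ly6e had 252, a median of 671 and 1100 CPM in HRO, and 303, 178, 141 and 90.2 CPM in WTO. HRO.12 alone lay below the highest WTO sample, WTO.4. The log2 fold change was 1.43 ± 0.20 (edgeR adjusted p 0.00268), and it was 1.28 within pool WBM_2 and 1.40 within pool WBM_4. Of 31 alternatives the call on Ly6e was lost without the pool term (1.83, adjusted p 0.0765) and without WTO.4 (1.35, 0.068).

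Ly6g in immature neutrophils had 514, a median of 625.5 and 734 CPM in HRO, and 913, 875, 794 and 625 CPM in WTO. The groups overlap through WTO.3, of pool WBM_1, and 3 of 6 HRO samples lay below all WTO samples. The log2 fold change was -0.53 ± 0.11 (edgeR adjusted p 0.0192), with -0.55 within pool WBM_2 and -0.58 within pool WBM_4. Ly6g kept its direction in every alternative (-0.61 to -0.46), but the call was lost with cells gated one by one (adjusted p 0.065), clusters at resolution 1 (0.107), no pool term (0.382) and without HRO.11 (0.0529), HRO.12 (0.0652), WTO.4 (0.121), WTO.5 (0.0561) or WTO.6 (0.0523). In mature neutrophils, where Ly6g had 536 to 953 CPM in HRO and 601 to 868 CPM in WTO, its log2 fold change was 0.28 ± 0.23 (adjusted p 0.727).

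Most immature neutrophils of HRO lay in clusters 7 (31.1%), 24 (18.7%) and 4 (17.9%), and those of WTO in clusters 11 (28.3%), 4 (22.1%) and 21 (17.1%). Cluster 7 had 115 CPM of Ly6e and cluster 11 44.8 CPM, while Ly6g was at 1419 and 1426 CPM in them. Cluster 24, with 2.5% of the WTO cells, had 235 CPM of Ly6e and 256 CPM of Ly6g. Cluster 4 had 49.6 and 729 CPM of these genes, and cluster 21, with 14.1% of the HRO cells, 61.8 and 219 CPM. The part of this mix of clusters in the results was not tested. Mature neutrophils of HRO lay mostly in clusters 25 (48.2%) and 19 (31.4%), and those of WTO in clusters 15 (47.2%) and 19 (30.1%). Mature neutrophil markers summed to 5073 to 13145 CPM in HRO and 4809 to 13009 CPM in WTO immature neutrophils, and monocyte markers to 34.5 to 92.3 CPM in HRO and 32.6 to 163 CPM in WTO. In mature neutrophils the 13 monocyte markers summed to 205 to 519 CPM in HRO (median 317) and 141 to 300.3 CPM in WTO (median 196), with overlapping ranges. Within pool WBM_2 they were at 519 CPM in HRO.7, 438 in HRO.8 and 246 in HRO.9, against 243 CPM in WTO.4, and within pool WBM_4 at 205 and 208 CPM in HRO, against 150.04 and 141 CPM in WTO. Monocytes had a median of 1631 CPM of Ly6e. The part of these markers in the results was not tested.

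**Figure D3:**
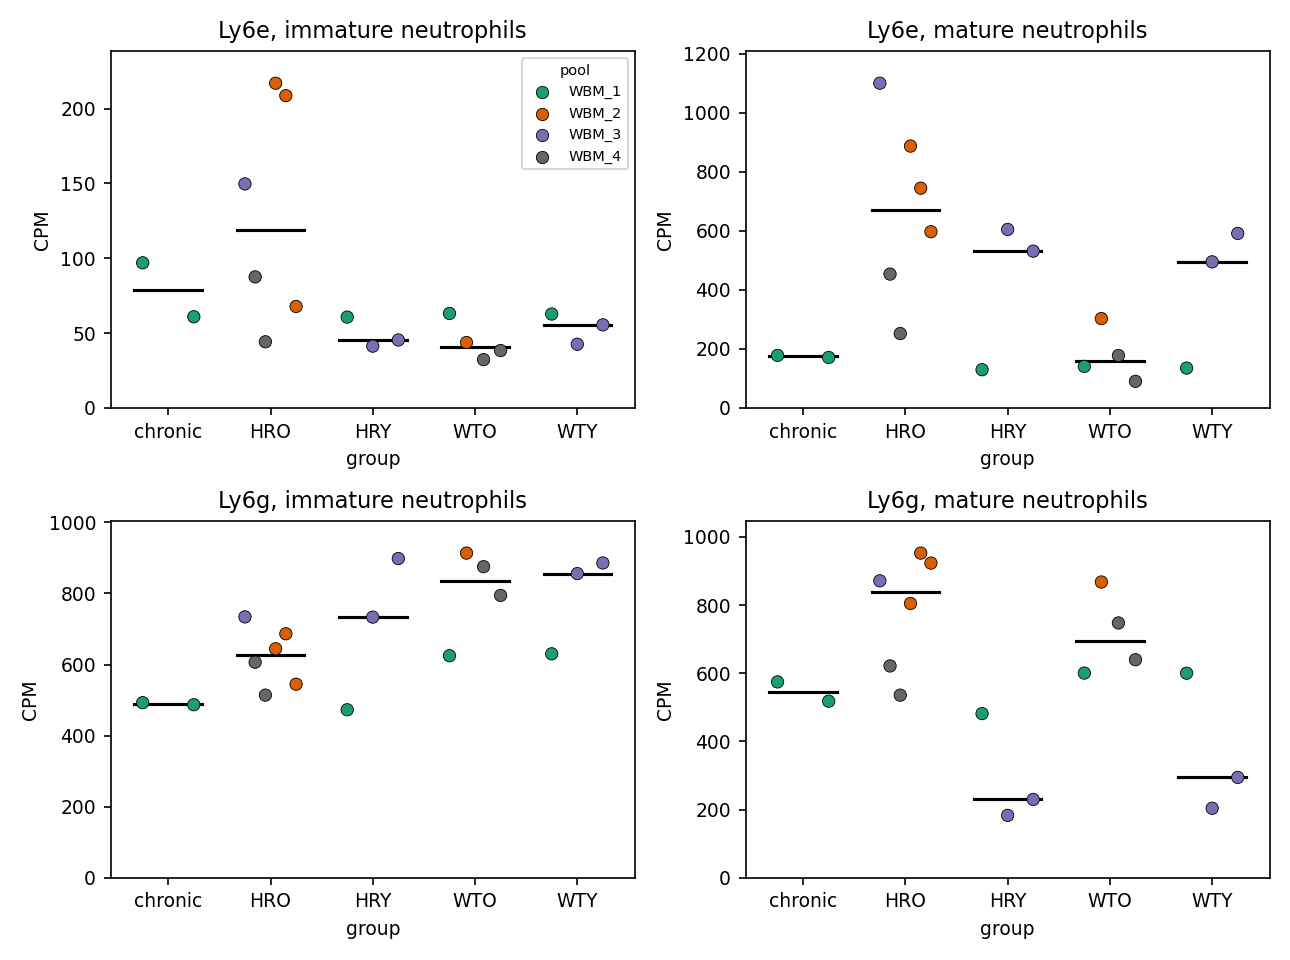
CPM of Ly6e and Ly6g in immature and mature neutrophils of each hashtag sample, by group, with colours for pools and bars at the group median. In mature neutrophils Ly6e reaches 1100 CPM in HRO and at most 303 CPM in WTO, and Ly6g is lowest in the WBM_3 samples of HRY and WTY (183 to 295 CPM).

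Myeloid progenitors (stem and progenitor cells with early neutrophil precursors) and T or NK cells had no member past the threshold. Ly6a in progenitors had 24.5, a median of 99.9 and 517 CPM in HRO, and 20.5, 13.03, 11.5 and 9.39 CPM in WTO. No sample overlapped, yet the log2 fold change of 2.86 ± 0.75 had an adjusted p of 0.114, with 22 of 10068 genes of the class called. Without HRO.7 and HRO.8 it was 1.38 ± 0.19 with an adjusted p of 0.000337, and Ly6e was then at 0.56 ± 0.11 (adjusted p 0.0152), against 0.98 ± 0.28 (0.141) with them. Stem cells made up 25.9% to 74.2% of these progenitors in HRO and 0% to 28.3% in WTO. Ly6a was at 144 CPM in stem cell cluster 36, which held all stem cells of WTO, against 10.0 CPM in precursor cluster 18. Stem cell cluster 41, with 57.7% of the stem cells of HRO, had 650 CPM of Ly6a. Ly6e was at 1500 CPM in cluster 41, 777 CPM in cluster 36 and 461 CPM in cluster 18. The part of this mix in the differences was not tested. In T or NK cells Ly6a had 213, a median of 746 and 1517 CPM in HRO, and 247, 205 and 68.3 CPM in WTO. HRO.12 alone overlapped, and the log2 fold change of 2.34 ± 0.58 had an adjusted p of 0.283 (1.68 ± 0.48 and 0.413 without HRO.7 and HRO.8) in edgeR's quasi-likelihood test. T or NK cells of HRO lay 86.2% in cluster 10 and 12.2% in cluster 51, with 1136 and 1332 CPM of Ly6a, and those of WTO 64.3% in cluster 10 and 33.9% in cluster 33, with 273 CPM of Ly6a in cluster 33.

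HRO against HRY sets apart 2 prefixes that share the letters HR. The groups share pool WBM_3 only, through HRO.10. In HRO, Ly6a and Ly6e rose in monocytes, and Ly6g and Ly6e rose in mature neutrophils, 4 of 29 tests against 1.7% of all tests (11 at unadjusted p under 0.05). That was 2 of 7 members in monocytes, where 5.46% of all genes were called, and 2 of 6 in mature neutrophils, where 1.66% were. Without HRO.7 and HRO.8, 9 tests of a member in a class were called, among them Ly6a in progenitors (3.78 ± 0.36 on the log2 scale, adjusted p 1.55e-06) and Ly6e in progenitors (1.08 ± 0.16, 0.000903) and immature neutrophils (1.39 ± 0.28, 0.0221). The share of all genes called was counted for the fit with all samples only, so counts with samples left out have no background beside them. Stem cells made up 25.9% to 46.2% of the progenitors of HRO.9 to HRO.12 and 0% to 20.9% of those of HRY, and their part in the progenitor results was not tested. Leaving out 1 sample gave 0 calls (HRO.10), 1 (HRY.4, HRY.5 or HRY.6) or 9 (HRO.9) in place of 4. Ddx3y was detected in 1 of 6 HRO and 3 of 3 HRY samples.

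Ly6a in monocytes had the HRO values above, 8.51 to 996 CPM, against 12.8 (HRY.4), 3.52 and 1.49 CPM in HRY. HRO.12 alone overlapped. The log2 fold change was 5.52 ± 1.39 (edgeR adjusted p 0.0276), and within pool WBM_3 HRO.10 had 196 CPM against a mean of 2.50 CPM in HRY.5 and HRY.6. Without HRO.7 and HRO.8 the log2 fold change of Ly6a was 4.65 ± 0.62 (adjusted p 6.38e-05). The call was lost with Ddx3y status as a term (1.58, adjusted p 0.69), without HRO.10 (3.99, 0.913), HRY.4 (6.03, 0.0766), HRY.5 (5.33, 0.0914), HRY.6 (5.33, 0.115) or WTY.3 (5.48, 0.0541), and without pool WBM_1 (6.12, 0.109). Ly6e in monocytes had 1413, a median of 1918 and 3191 CPM in HRO, and 1854, 1847 and 1007 CPM in HRY. The groups overlap, with 3 of 6 HRO samples above all HRY samples. The log2 fold change was 0.79 ± 0.16 (edgeR adjusted p 0.00928). Without the pool term the log2 fold change of Ly6e was 0.49 (adjusted p 0.208), without HRO.10 0.44 (0.671) and without HRY.4 0.71 (0.0593).

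Ly6g in mature neutrophils had 536, a median of 838 and 953 CPM in HRO, and 482 (HRY.4), 230 and 183 CPM in HRY, with no overlap. The log2 fold change was 1.67 ± 0.32 (edgeR adjusted p 0.0111). It rests on pool WBM_3, where HRO.10 had 871 CPM against a mean of 207 CPM in HRY.5 and HRY.6. Without HRO.10 the log2 fold change of Ly6g was 0.13 with an adjusted p of 0.968, and the call was also lost with Ddx3y status as a term (1.52, 0.0596), cells gated one by one (1.55, 0.0868), no pool term (1.36, 0.226) and without HRY.5 (1.51, 0.0806) or HRY.6 (1.71, 0.0637). Ly6e there had 252 to 1100 CPM (median 671) in HRO, and 605, 531 and 130 CPM (HRY.4) in HRY. The groups overlap, and the log2 fold change was 1.25 ± 0.28 (edgeR adjusted p 0.0271). That call on Ly6e was lost without HRO.10 (1.36, adjusted p 0.80), HRY.4 (1.14, 0.0908), HRY.5 (1.33, 0.0806), HRY.6 (1.23, 0.113) or pool WBM_1 (1.13, 0.105), with no pool term (1.02, 0.203), Ddx3y status (1.11, 0.152), cells gated one by one (1.20, 0.06) or a minimum of 500 genes per cell (1.08, 0.0945). Mature neutrophils of HRY lay 78.7% in cluster 1, with 215 CPM of Ly6g and 562 CPM of Ly6e, and those of HRO 48.2% in cluster 25, with 874 and 732 CPM. Immature neutrophil markers in them summed to 21312 to 33668 CPM in HRO and 12063 to 36413 CPM in HRY.

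HRY against WTY and WTO against WTY gave no called member. For HRY against WTY, 0 of 35 tests passed (2 at unadjusted p under 0.05, 0 with DESeq2), beside 0.024% of all tests. Ly6a in monocytes had 12.8, 3.52 and 1.49 CPM in HRY and 16.2, 9.01 and 5.62 CPM in WTY, which overlap. For WTO against WTY, 0 of 35 passed (3 at unadjusted p under 0.05, 0 with DESeq2), beside 0.00655%. Ly6g in mature neutrophils had 868, 748, 640 and 601 CPM in WTO, and 600, 295 and 204 CPM in WTY. These did not overlap, and the log2 fold change of 1.08 ± 0.35 had an adjusted p of 0.377 in edgeR's quasi-likelihood test. The value of Ly6g was -0.11 without HRO.10 (adjusted p 0.961) and 2.10 without WTO.3 (0.00119). Without WTO.3, 3 tests of a member in a class were called, with no share over all genes counted. WTO and WTY share pool WBM_1 only, where WTO.3 had 601 CPM and WTY.3 600 CPM.

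The difference between these effects, HRO against WTO minus HRY against WTY, was called for 0 of 29 tests (8 at unadjusted p under 0.05, 1 with DESeq2), beside 0.472% of all tests. Ly6e in mature neutrophils came nearest, at 1.37 ± 0.31 on the log2 scale with an edgeR adjusted p of 0.0903, and was the member DESeq2 called (1.34, adjusted p 0.0284). Without HRO.7 and HRO.8 it was 1.21 ± 0.28 (edgeR adjusted p 0.0453). Ly6a in monocytes was at 5.84 ± 1.93 (edgeR adjusted p 0.144), and at 2.46 ± 0.91 (0.195) without HRO.7 and HRO.8.

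The chronic, TET2-mutated samples were set against the HRO samples and against WTO, WTY and HRY together. Against HRO no member passed, 0 of 29 tests (8 at unadjusted p under 0.05, 0 with DESeq2), beside 0.095% of all tests. These groups share no pool, so group and pool were separated only through the other groups. Ly6a in monocytes had 30.1 and 12.3 CPM in chronic samples, and 8.51 to 996 CPM in HRO, and its log2 fold change was -4.80 ± 1.86 (edgeR adjusted p 0.292). Without HRO.7 and HRO.8 it was -3.37 ± 0.82 with an adjusted p of 0.0499. Against WTO, WTY and HRY together 1 member of 35 tests was called (3 at unadjusted p under 0.05), Ly6a in the B lineage, beside 0.0765% of all tests and 0.514% of those in the B lineage.

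Ly6a in the B lineage had 388 and 521 CPM in the chronic samples, against 252, 98.2 and 95.1 CPM in HRY, 441 (WTO.4), 180, 86.2 and 66.0 CPM in WTO and 157, 95.2 and 53.2 CPM in WTY. WTO.4 alone of the 10 overlapped. Within pool WBM_1 the other samples had 95.1 (HRY.4), 86.2 (WTO.3) and 157 CPM (WTY.3), all below both chronic samples. Ly6a had a log2 fold change of 2.18 ± 0.31 (edgeR adjusted p 3.7e-05). It lost its call without HRY.4 (1.55, adjusted p 0.141), without the pool term (2.04, 0.287) and with cells gated one by one (1.73, 1).

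Mature B cells, which carry far more Ly6a than pro-B and pre-B cells, made up 57.0% and 74.5% of the B lineage in the chronic samples and 34.0% to 78.6% in the other 10. In mature B cells alone, a comparison added after the B lineage result was seen, Ly6a had 695 and 683 CPM in the chronic samples, and 195 to 698 CPM in the 8 other samples with 20 such cells. WTO.4 (698 CPM) alone was as high, and the log2 fold change was 1.30 ± 0.26 (edgeR adjusted p 0.00966). In pro-B and pre-B cells it was 12.7 and 10.7 CPM in the chronic samples. HRO.9, the HRO sample with enough B cells, had 594 CPM of Ly6a over its whole B lineage, above both chronic samples. Its mature B cells had 681 CPM. Summed plasma cell markers in the B lineage were 2384 and 2504 CPM in chronic samples and 752 to 2114 CPM in the others, and their part in the result was not tested. Ly6d, with 2190.3 and 1504 CPM in the chronic B lineage and 371 to 1886 CPM in the 10 others, passed no test.

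**Figure D4:**
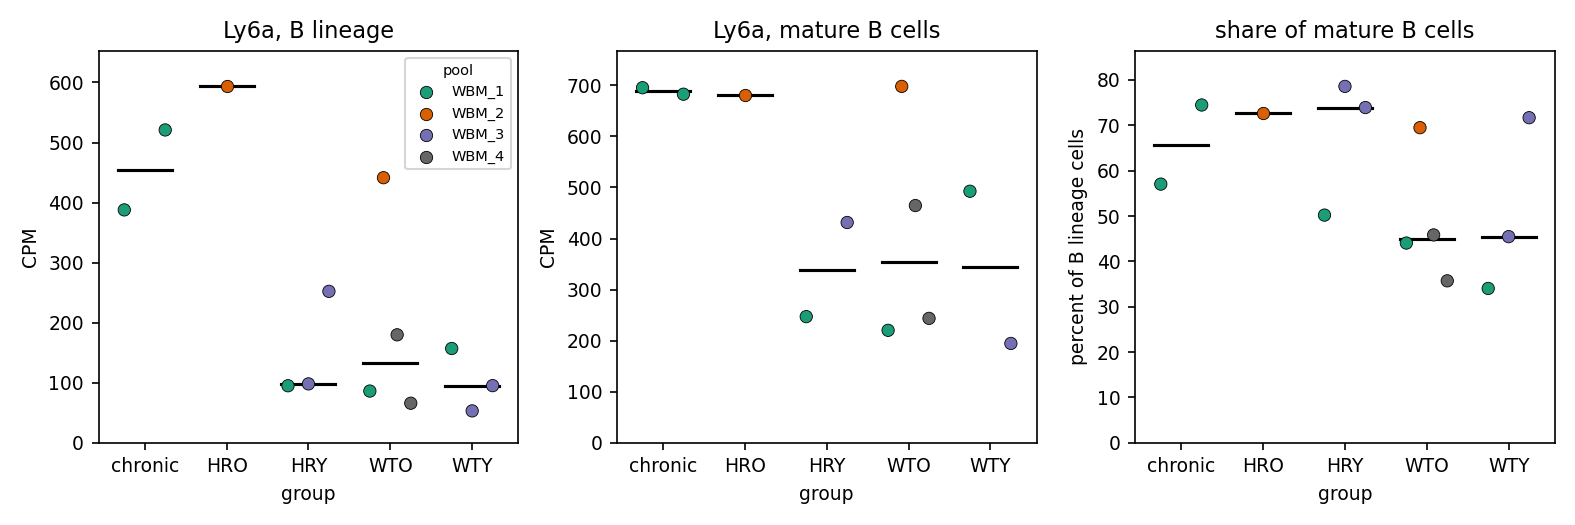
Ly6a in the B lineage and in mature B cells of each hashtag sample, and the share of mature B cells in the B lineage, by group, with colours for pools and bars at the group median. The chronic samples have 388 and 521 CPM of Ly6a in the B lineage and 695 and 683 CPM in mature B cells.

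Lists of related genes were counted in the same fits. Of 7 tests of other LY6/uPAR-domain genes in HRO against WTO none rose and 1 fell, Ly6g5b of the MHC region, in immature neutrophils (-0.97 ± 0.19 on the log2 scale, adjusted p 0.00913). The genes that build and attach the GPI anchor gave 2 of 85 tests higher and 1 lower, all in monocytes: Gpaa1, a subunit of the enzyme that attaches the anchor (0.50 ± 0.14, adjusted p 0.0343), Dpm1, which makes its mannose donor (0.64 ± 0.16, 0.0153), and Pigh, of its first synthetic step (-1.25 ± 0.22, 0.00238). These shares lie near the 3.96% called among all tests, and the median in monocytes was 0.06 beside 0.01 for all genes.

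Interferon receptors and signal transducers gave 7 of 83 tests higher and 1 lower in HRO against WTO, beside 3.96% called among all tests. In immature neutrophils it was 3 of 18, beside 2.24%, and in monocytes 2 higher and 1 lower of 18, beside 12.0%. Socs3, a feedback inhibitor of cytokine signals, rose in monocytes by 3.19 ± 0.41 (adjusted p 0.000175). Irf7, an interferon regulatory factor, rose in immature neutrophils (1.47 ± 0.37, 0.0391), mature neutrophils (1.72 ± 0.39, 0.0258) and progenitors (2.39 ± 0.45, 0.0323), the first 2 being classes in which Ly6e rose. In HRO against HRY the list again gave 7 of 83 higher and 1 lower, beside 1.7% of all tests, with Irf7 (3.25 ± 0.54, adjusted p 0.00392) and Usp18, which restrains interferon signalling (2.73 ± 0.55, 0.0124), higher in mature neutrophils. In HRO against WTO the list's median was 0.41 in mature neutrophils beside 0.04 for all genes. Among other surface genes listed as GPI-anchored, 5 of 45 tests were higher and 2 lower in HRO against WTO. In monocytes these were 3 higher and 2 lower of 10, beside 12.0% of all genes. Bst1, a GPI-anchored enzyme of NAD metabolism, rose in monocytes by 2.41 ± 0.18 (adjusted p 1.31e-06), and Cd14, the lipopolysaccharide co-receptor, in immature (2.06 ± 0.47, 0.0239) and mature neutrophils (3.32 ± 0.63, 0.0114). Fcgr4, which in mice spans the membrane although it was listed here, rose in monocytes by 2.93 ± 0.44 (0.000658), and Cd48 fell there by 0.69 (adjusted p 0.000426).

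Transcripts of neighbouring cell types were followed beside these. The 9 neutrophil genes gave 45 tests of a gene in a class in HRO against WTO, of which 4 were higher and 2 lower, beside 3.96% of all tests. Monocytes held 3 of the higher and both lower ones, beside 12.0% of all genes there, with S100a8 (2.12 ± 0.20 on the log2 scale, adjusted p 1.39e-05), S100a9 (1.76 ± 0.23, 0.000212) and Lcn2 (2.27 ± 0.33, 0.000514) higher in monocytes, where Ly6a rose. The 5 monocyte genes gave 21 tests, of which none was higher and 1 lower, Csf1r in monocytes (-0.38 ± 0.10, adjusted p 0.0226). Their part in the Ly6a result was not tested.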

How the data were processed

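Single-cell RNA of whole mouse marrow was measured in 7 libraries. The deposited matrices hold raw UMI counts per gene and barcode, made with Cell Ranger 3.0.0 (pool WBM_1) or 3.1.0 (other pools), per the file headers; the mm10 build, bcl2fastq and Seurat are named in the submitters' processing notes. Hashtags were assigned with HTODemux (Seurat 5.3.0, positive quantile 0.99) and singlets kept; no other doublet caller was run. The lower-UMI copies of barcodes shared by WBM_3a and WBM_3b, cells with under 300 genes and cells with over 10% mitochondrial counts were removed.

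Counts were log-normalised (scanpy 1.11.5). The 2000 most variable genes without the Ly6 members, 30 components and 20 neighbours were used for clusters by the Leiden method (leidenalg 0.10.2 with igraph 0.11.9). Each cluster was named for the class whose listed markers it passed most often. Classes came from resolution 2 in place of the planned resolution 1, at which the monocyte-like cells of HRO.7 and HRO.8 stayed unnamed. This was chosen after clusters were named and ahead of the Ly6 tests, and resolution 1 is an alternative. Counts were summed per sample and class (at least 20 cells) and tested with edgeR 4.0.16 (TMM, filterByExpr, quasi-likelihood, group and pool terms) in R 4.3.3; SE is the log2 fold change over the root of F. The script was checked on simulated counts. DESeq2 1.42.0, other cell choices, Ddx3y status and leaving out samples were alternatives. HRO.7 and HRO.8 carry separate hashtags and were counted as 2 samples. Their counts differed less from each other (chi-square per degree of freedom 1.36 to 4.29 over the classes) than from those of HRO.9 in the same pool (7.82 to 56.9). Pairs of the same group in the other pools were at 1.39 to 4.89. This measure grows with the number of counts in a pair, which differed between pairs. It therefore cannot show whether HRO.7 and HRO.8 were unusually alike. All 8 members are named, with values in every sample for those that passed and averaged 5 CPM or more. List genes named are among the 3 called with the smallest p in a class and comparison. The 5 genes most like Ly6a, Ly6c2 and Ly6i (log2 of CPM plus 1) are named, except 1 gene that is not reported here. Members and lists were chosen with earlier results of these data known.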

Additional observations from a re-analysis of the deposited data

Results flagged for a closer look

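Ly6a over all cells of HR.AE, a sample outside the comparisons, was at 2597 CPM, against 8.58 to 103 CPM (median 30.3) in the 7 WTO and WTY samples. Of the cells of HR.AE 99.6% lay in unnamed clusters, against 7.14% to 19.1% in those samples, so samples of unlike cell make-up were compared. Ly6a in monocytes of WTO.4 was at 17.0 CPM, apart from the other 3 WTO samples at 5.40 to 5.66 CPM by Dixon's test. Of 13 groups checked 1 stood out in this way, and chance gives about 1 in 20. WTO.4 is also the WTO sample without Ddx3y and the one in pool WBM_2. No explanation was tested.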

How the results depend on the processing

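The share of all genes called was counted for the main fits only, so the counts under alternatives have no background beside them. Tests of a member in a class that were called numbered 4 for HRO against WTO, 0 for HRY against WTY, 4 for HRO against HRY, 0 for WTO against WTY, 0 for chronic against HRO, 1 for chronic against WTO, WTY and HRY and 0 for the difference of effects. Without a filter on low counts the first 5 and the last became 16, 1, 12, 3, 8 and 7. Without the pool term HRO against WTO became 0, HRO against HRY 2, chronic against HRO 1 and chronic against WTO, WTY and HRY 0. Clusters at resolution 1 gave 2 for HRO against WTO and 7 for HRO against HRY. Without pool WBM_1, an alternative chosen after seeing the data, HRO against WTO, HRO against HRY and WTO against WTY gave 2 each. Cells gated one by one gave 8 for HRO against HRY, 1 for chronic against HRO, 0 for chronic against WTO, WTY and HRY and 1 for the difference of effects. DESeq2 gave 7 for HRO against HRY and 1 for the difference, and Ddx3y status as a term 1 for HRO against HRY. A minimum of 500 genes per cell gave 1 for WTO against WTY, 1 for chronic against HRO and 2 for chronic against WTO, WTY and HRY. Without both HRO.7 and HRO.8, HRO against WTO gave 6, HRO against HRY 9, chronic against HRO 1 and the difference 1. Leaving out 1 sample gave 0 (WTO.4) to 13 (HRO.9) for HRO against WTO, 0 to 0 for HRY against WTY, 0 (HRO.10) to 9 (HRO.9) for HRO against HRY, 0 to 3 for WTO against WTY, 0 to 2 for chronic against HRO, 0 to 2 for chronic against WTO, WTY and HRY and 0 to 3 for the difference. The median of Ly6g in immature neutrophils, 665 CPM, was 404 CPM at resolution 1 and 451 CPM with cells gated one by one. Of single-member values, 1351 kept direction and side of the threshold, 51 lost and 91 gained a call, and 4 changed sign: Ly6d in monocytes, gated one by one, to 0.47 (HRO against WTO) and -0.60 (chronic against HRO), Ly6g in mature neutrophils for WTO against WTY (-0.11 without HRO.10 to 2.10 without WTO.3) and Ly6k in the B lineage of chronic samples (-0.52 without HRO.6 to 2.23 without HRO.5). The cause was not tested. Where 1 sample of an arm was left, it was assumed to vary like the other groups. No paired analysis was possible because the hashtag numbers mark no shared animal, litter or day across groups. Classes with few cells, such as macrophages in 2 samples, limit the levels given for them.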

Other observations

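HR.AE had 1401 cells, 99.6% of them in unnamed clusters. Of the cells of unnamed cluster 5, led by Cpa3 and Cma1, 95.7% came from HR.AE. In that cluster Ly6a was at 2669 CPM, Ly6e at 1067 CPM and Ly6c2 at 24.3 CPM. Over all cells HR.AE had 1046 CPM of Ly6e and 19.4 CPM of Ly6c2, against 1052 to 2106 CPM of Ly6c2 in the WTO and WTY samples. HR.7, with 2803 cells, had 20.3 CPM of Ly6a, 787 CPM of Ly6c2, 11.8 CPM of Ly6g and 34.1 CPM of Ly6d over all cells. Ly6g was at 134 to 458 CPM in the WTO and WTY samples. The cell make-up differed, as 40.4% of HR.7 cells were erythroid, 1.75% immature neutrophils and 3.21% mature neutrophils. In the WTO and WTY samples immature neutrophils made up 9.85% to 40.5% of cells and mature neutrophils 6.42% to 41.5%. Unnamed cluster 32, of 530 cells led by Ccl22 and Shisa8 and 73.0% from HRO.7, had 525 CPM of Ly6k and 1742 CPM of Ly6d, and cluster 47 of plasma cells had 155 CPM of Ly6k and 1027 CPM of Ly6d. Unnamed cluster 40 (418 cells, 52.6% from HRO.9) had 1499.6 CPM of Ly6a and unnamed cluster 26 (693 cells, 34.1% from HRO.9) 248 CPM of Ly6i.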
